A study of Mus musculus with 8 samples.

Results

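CASK, the Caskins, the Mint proteins and the Lin7 proteins are scaffolds that gather membrane and vesicle proteins at synapses. The 9 mouse genes that encode them are described here in ribosome-bound RNA of hippocampal CCK cells with and without SMARCA3. They were taken from the deposited table of 39017 Ensembl genes by their GENCODE symbols, and 9 of 9 were found. They are Caskin1, Caskin2, Cask, the Mint genes Apba1, Apba2 and Apba3, and the Lin7 genes Lin7a, Lin7b and Lin7c. The set was chosen by the measured cKO to WT difference of Caskin1 in earlier work on these data, and the other 8 genes were added as its complex partners and their paralogues. Differences of the 9 genes between these groups are therefore given as a description, with no p-value, and counts of calls are given for all genes as background.

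CASK is a membrane-associated guanylate kinase that binds the cytoplasmic tails of neurexins and syndecans. It forms a tripartite complex with Mint1, encoded by Apba1, and with Lin7 proteins, whose worm counterparts LIN-2, LIN-10 and LIN-7 localise a receptor in the vulval epithelium. Caskin1 is a multidomain protein of the brain that binds CASK at the site also used by Mint1. Mint proteins in addition bind Munc18-1 and the amyloid precursor protein.

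The cKO group held 5 libraries from mice with CCK cre, the L10-EGFP ribosome tag and 2 floxed SMARCA3 alleles (SMARCA3 fl/fl). The WT group held 3 libraries from littermates that carried the same Cre and tag without SMARCA3 fl/fl, so Cre and the tagged ribosomal protein were shared by all animals. SMARCA3 is a SWI/SNF-type chromatin remodeller encoded by Hltf, and Cre under Cck control acts in excitatory and inhibitory cells that express Cck or have done so. Each library pooled 4 hippocampi. Age and sex are not stated, nor whether pools shared animals or litters, so the spread described is that between these 8 pools. Translating ribosome affinity purification (TRAP) pulls down RNA on tagged ribosomes, and no library of input RNA was analysed here. Fewer cells of a type and less RNA per cell cannot be told apart in such pools.

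Libraries held 31760155 to 61823651 counts. Hltf, the deleted gene, was at 5.10, 4.49, 4.21, 2.83 and 11.4 CPM (counts scaled by library size) in cKO 1 to 5, against 13.7, 8.39 and 9.87 CPM in WT 1 to 3. The library labelled cKO 5 thus went against its label, and the log2 fold changes of the 9 genes and of the named partners are given with and without it. It also had the most genes without a count despite a mean of at least 1 CPM, 51 against 0 to 18 in the other libraries. The level of Cck averaged 661 ± 108 CPM in cKO (SD, n = 5) and 540 ± 112 CPM in WT (SD, n = 3). The 7 glutamatergic markers summed to 8239 to 12557 CPM in cKO and 7779 to 8313 CPM in WT, most of it Camk2a (means of 7567 CPM in cKO and 6076 CPM in WT), and 4 of 7 had a log2 fold change above 0 (median 0.09). Slc17a7 at 0.49 (SE 0.10) and Camk2a at 0.32 (SE 0.14) had all cKO libraries above all WT libraries, as did 3.38% of all genes tested. Slc17a6 was at -0.34 (SE 0.26), Neurod2 at -0.09 and Neurod6 at -0.08. The GABAergic list summed to 139 to 225 CPM in cKO and 176 to 219 CPM in WT.

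Sequence shows how alike the paralogues are, which bears on whether their reads can be told apart. Between the coding sequences of any 2 of the 9 genes, the longest run of identical bases was 41, between Apba1 and Apba2. No stretch of 50 bases was shared by any pair, and the longest run within the Lin7 genes was 23 bases, between Lin7a and Lin7c. The 90 coding bases at which Lin7b and Lin7c together match Lin7a best are printed from the GENCODE vM21 transcripts, with the bases that differ among them in capitals.
Lin7a: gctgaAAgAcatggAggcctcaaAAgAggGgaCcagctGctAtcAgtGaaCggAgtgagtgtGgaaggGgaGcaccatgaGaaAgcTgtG
Lin7b: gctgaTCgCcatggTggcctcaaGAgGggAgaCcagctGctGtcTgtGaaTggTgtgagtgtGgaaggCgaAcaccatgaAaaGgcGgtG
Lin7c: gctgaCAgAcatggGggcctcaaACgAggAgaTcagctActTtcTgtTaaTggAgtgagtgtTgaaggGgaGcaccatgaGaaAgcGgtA
These bases lie at chr10:107382657-107411985 (plus strand), chr7:45368435-45369197 (minus strand) and chr2:109896389-109897278 (plus strand) of mm10, each window spanning 2 exons. Of the 90 positions, 68 are the same in all 3 genes, and 20 of the 22 that differ fall at the third position of a codon. The third positions of the window are 50% G or C in Lin7a, 56.7% in Lin7b and 36.7% in Lin7c. Over the longest annotated transcript, GC content was 44.0% in Lin7a, 59.9% in Lin7b and 37.3% in Lin7c.

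Levels of different genes are compared only per length, as CPM per kb of annotated exon. Averaged over the 8 libraries, Lin7a stood highest at 51.7 ± 4.26 CPM per kb (SD, n = 8). Lin7c followed at 36.2 ± 4.91, Lin7b at 30.6 ± 8.06 and Apba1 at 19.4 ± 4.27 CPM per kb. Caskin1 at 10.5 ± 2.29 and Cask at 9.79 ± 0.655 CPM per kb were neighbours, and Apba2 lay below them at 4.50 ± 1.05. Apba3, at 0.887 ± 0.305 CPM per kb, and Caskin2, at 0.0780 ± 0.0908, closed the order. Each gene lay above the next in all 8 libraries except for Lin7c over Lin7b, which held in 6, and Caskin1 over Cask, which held in 5.

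Within the subfamilies these differences were tested, since the genes were not chosen by comparing their levels within a library. A choice by the cKO to WT difference of Caskin1 does favour a gene with ample counts. The test of Caskin1 against Caskin2 is therefore not independent of the choice. The test was an exact sign-flip permutation test over the 8 libraries, two-sided, for 7 pairs of paralogues, with Benjamini-Hochberg adjustment over the 7. The smallest p it can give is 0.00781. Caskin1 exceeded Caskin2 by 7.82 ± 1.65 on the log2 scale of counts per kb (SD, n = 8; exact adjusted p 0.00911), higher in 8 of 8 libraries. Apba1 exceeded Apba2 by 2.11 ± 0.23 and Apba3 by 4.49 ± 0.55, and Apba2 exceeded Apba3 by 2.38 ± 0.59 (SD, n = 8), each in 8 of 8 libraries with an exact adjusted p of 0.00911. In these pull-downs the abundant paralogues were Caskin1 and the neuronal Mint gene Apba1, while Apba3, whose product Mint3 is widely expressed outside neurons, was low.

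Lin7a exceeded Lin7c by 0.52 ± 0.23 and Lin7b by 0.80 ± 0.42 on the same log2 scale, each in 8 of 8 libraries with an exact adjusted p of 0.00911 (SD, n = 8). Lin7b and Lin7c differed by -0.28 ± 0.53 (SD, n = 8; exact adjusted p 0.180), or by -0.40 without the library labelled cKO 5 (exact adjusted p 0.0469). Both comparisons with Lin7b depend on its length, which is 1463 bases over all annotated exons but 735 in its longest transcript. With the longest transcript as length, Lin7a exceeded Lin7b by only 0.29 (exact adjusted p 0.102), and Lin7b stood 0.62 above Lin7c (exact adjusted p 0.0273).

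**Figure D1:**
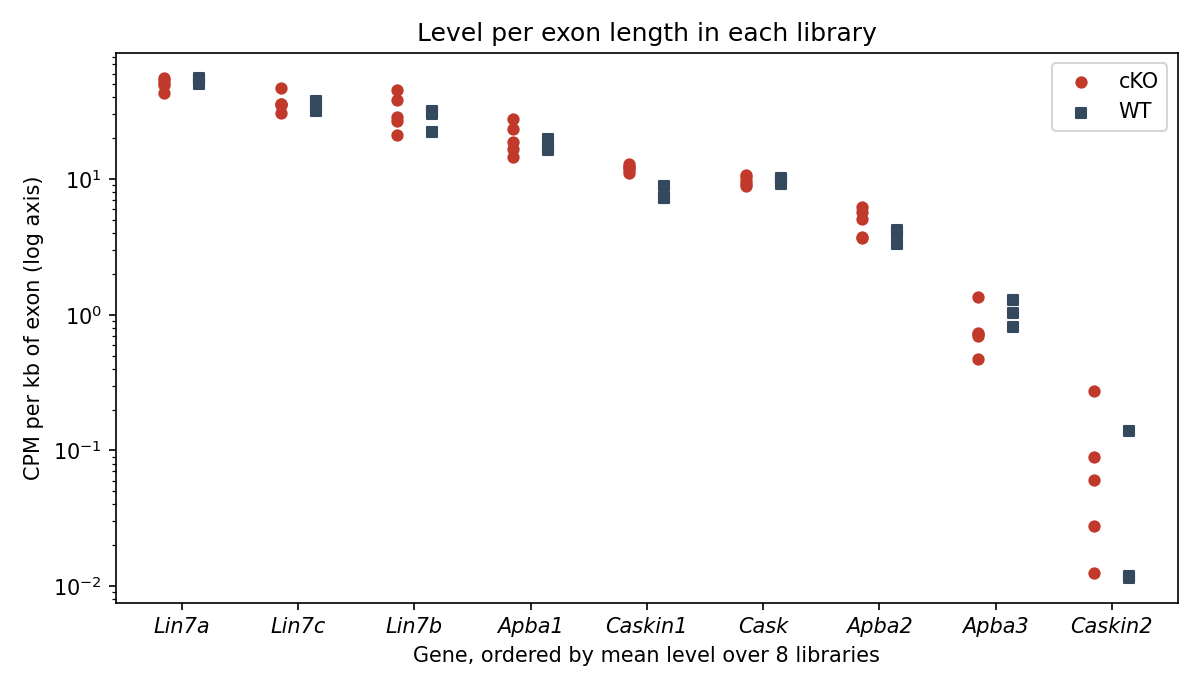
Level of each gene in CPM per kb of exon (log axis), with genes ordered by their mean over 8 libraries. Red circles are the 5 cKO libraries, the library labelled cKO 5 included, and dark squares the 3 WT libraries. The 3 Lin7 genes stand highest, Caskin2 lies at or below 0.273 CPM per kb in every library, and Caskin1 has its cKO points above its WT points.

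Caskin1 (ENSMUSG00000033597; chromosome 17, 24488601 to 24508671, plus strand of mm10) had levels of 87.8, 83.6, 93.2 and 97.9 CPM in cKO 1 to 4 and 92.4 CPM in the library labelled cKO 5, against 55.4, 67.6 and 54.9 CPM in WT 1 to 3. All 5 cKO libraries lay above all 3 WT libraries, with a gap between the lowest cKO and the highest WT value, and no cKO library stood apart. Means were 91.0 ± 5.47 CPM in cKO (SD, n = 5) and 59.3 ± 7.24 CPM in WT (SD, n = 3). The fitted fold of cKO over WT was 1.53, a log2 fold change of 0.62 (SE 0.11). Counts behind these values ran from 2990 to 5228 in cKO and from 2082 to 3396 in WT.

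The groups did not overlap for 1 of the 9 genes, against 7.19% of the 17654 genes tested. That gene, Caskin1, had its cKO values on the upper side, as did 3.38% of all genes, while 3.82% had them on the lower side. Since the same contrast led to the choice of Caskin1, nothing is read from its place among them. Over all genes, edgeR called 0% at an adjusted p under 0.05, and 1540 genes (8.72%) had an unadjusted p under 0.05. DESeq2 called 129 of the 12402 genes that had an adjusted p (1.04%), and limma-voom called 3 genes higher and 1 lower.

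The Caskin1 difference changed little when libraries were left out. Its log2 fold change was 0.61 (SE 0.12) without the library labelled cKO 5 and between 0.56 and 0.72 with each of the 8 libraries left out in turn. It was 0.57 (SE 0.12) over the 6 libraries cKO 1 to 3 and WT 1 to 3. After removal of each library's trend on GC content and transcript length it was 0.36, which is the setting that moved it most. Caskin1 is a GC-rich transcript (60.8%). Spearman's rho between GC content and log2 fold change was 0.32 over the 7472 genes whose mean log2 CPM exceeded 4, a description across genes that share the same 8 libraries.

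Base composition varied by library as well as by group. The slope of log2 CPM on GC, relative to the mean of all libraries and per 10 points of GC, was -0.17, 0.01, 0.07, 0.13 and 0.21 in cKO 1 to 5, against -0.04, -0.07 and -0.13 in WT 1 to 3. cKO 1 had the lowest slope of all 8 libraries and 87.8 CPM of Caskin1, and the other 4 cKO libraries had slopes above those of all WT libraries. The share of counts on mitochondrial genes was 0.295, 0.432, 0.530, 0.214 and 0.169% in cKO 1 to 5, against 0.176, 0.162 and 0.139% in WT 1 to 3, so that it was above all WT libraries in cKO 1 to 4 and among them in the library labelled cKO 5. Genes detected numbered 18811 to 21478 in cKO and 19745 to 21191 in WT. The part of these measures in the Caskin1 difference was not tested beyond the GC and length correction.

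Among markers of other cells, the oligodendrocyte and precursor sums lay apart between the groups, and the sums of the other lists overlapped. The 10 oligodendrocyte markers summed to 83.8 to 107 CPM in cKO and 71.4 to 75.8 CPM in WT, and the 6 precursor markers to 8.12 to 11.1 CPM in cKO and 5.81 to 6.01 CPM in WT, without overlap. The 10 astrocyte markers summed to 345 to 510 CPM in cKO and 333 to 443 CPM in WT, most of it Slc1a2 (means of 379 CPM in cKO and 347 CPM in WT). The 9 microglia markers summed to 7.86 to 14.7 CPM in cKO and 10.6 to 17.7 CPM in WT, and the 8 vascular markers to 22.4 to 86.8 CPM in cKO and 54.5 to 72.6 CPM in WT, most of it Rgs5 (means of 56.4 CPM in cKO and 60.8 CPM in WT). The 6 choroid plexus and ependymal markers summed to 25.6 to 73.9 CPM in cKO and 27.8 to 37.7 CPM in WT, with Tmem212 at 0 in all libraries. A non-neuronal marker covariate was the mean log2 CPM of the 37 tested oligodendrocyte, precursor, astrocyte, microglia and vascular markers. It ran from 0.196 to 1.09 in cKO and 0.166 to 0.430 in WT. Each marker counted alike, and several were near the floor, such as Mag (means of 0.164 CPM in cKO and 0.0933 CPM in WT) and Olig2 (0.601 and 0.141 CPM). With this covariate the log2 fold change of Caskin1 was 0.64 (SE 0.12).

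Caskin1 shares 110 exon bases (1.45% of its exons) with Traf7 on the opposite strand, and the strandedness of the counting is not given in the sources used here. Traf7, an E3 ubiquitin ligase gene, was at 9.95 to 14.9 CPM in cKO and 9.70 to 11.7 CPM in WT. The part of reads from Traf7 in the Caskin1 counts was not tested.

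**Figure D2:**
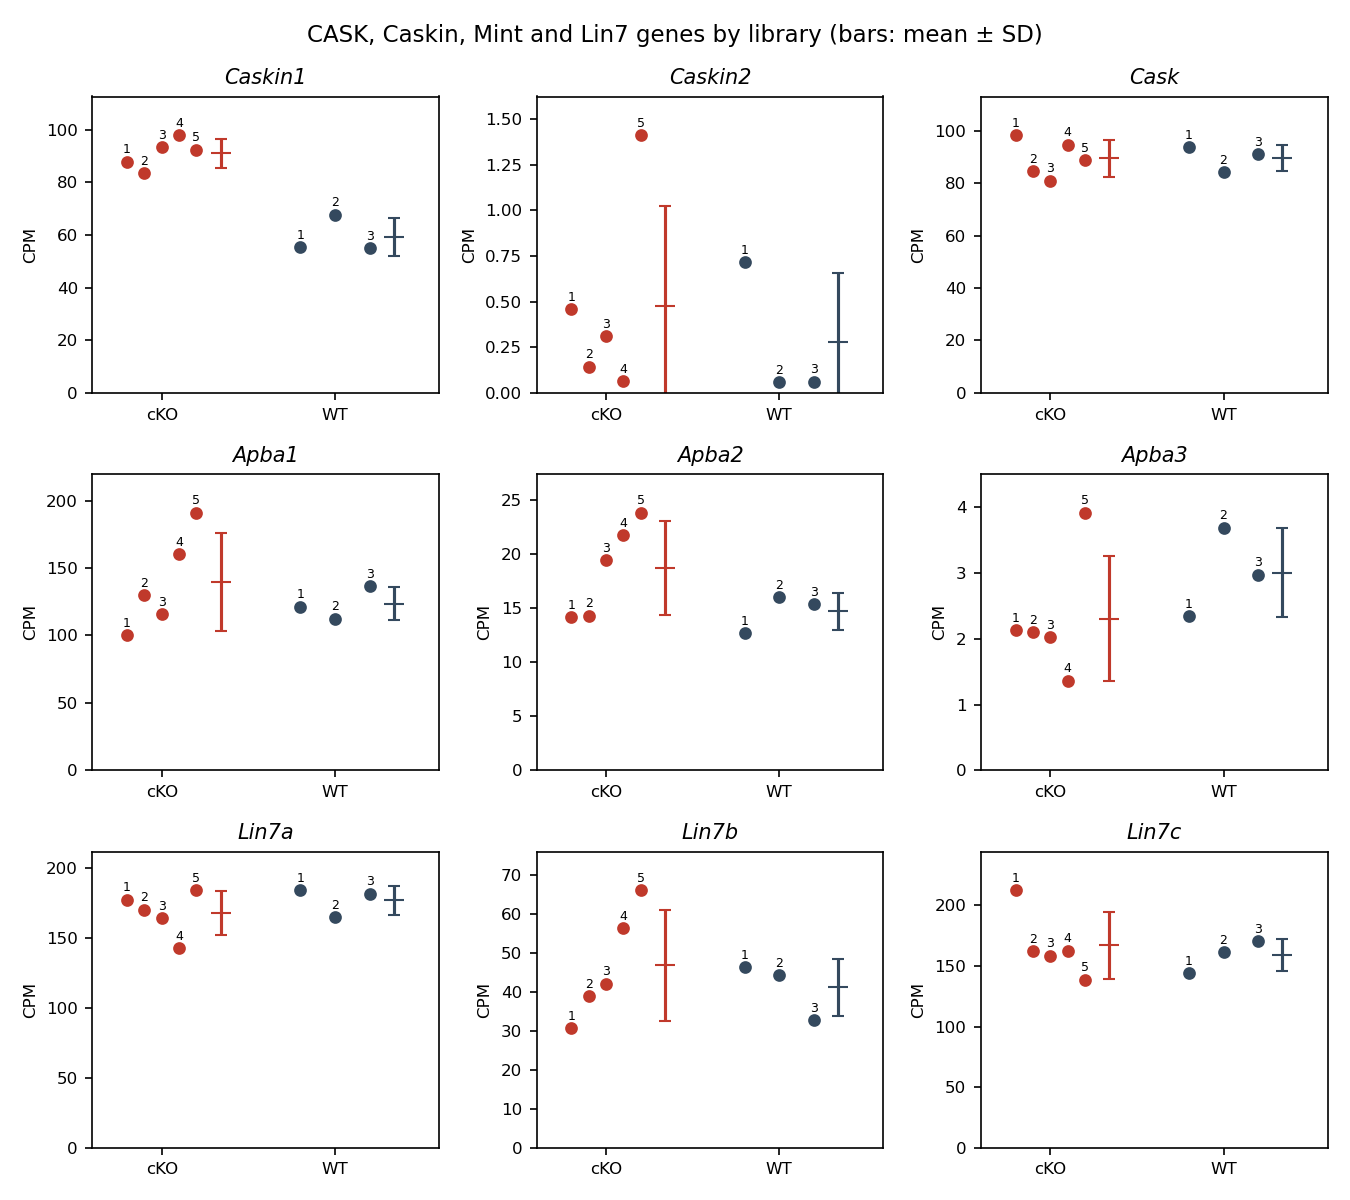
CPM of each gene in the 5 cKO libraries (red, left) and the 3 WT libraries (dark, right), numbered by library, with mean ± SD beside the points; the lower SD bars of Caskin2 end at the axis. Library 5 of cKO is the one whose Hltf level goes against its label. Caskin1 is the only panel in which the groups do not overlap, with 83.6 CPM as the lowest cKO value and 67.6 CPM as the highest WT value.

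Caskin2 (ENSMUSG00000034471; chromosome 11, 115799183 to 115813639), the paralogue known from both neural and other tissues, had few counts. There were 24, 9, 10 and 3 counts in cKO 1 to 4 and 52 in the library labelled cKO 5, against 27, 3 and 3 counts in WT 1 to 3. The 2 libraries with the most counts were thus 1 of each group. Its fitted log2 fold change was 0.78 (SE 1.16), and it was -0.17 without the library labelled cKO 5 and 2.91 without WT 1, so single libraries set it. Up to 184 of its exon bases (3.55%) are shared with Tmem94 on the opposite strand, which was at 12.2 to 22.4 CPM in cKO and 11.8 to 13.9 CPM in WT.

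Cask (ENSMUSG00000031012; chromosome X, 13517080 to 13851367), the central guanylate kinase scaffold, was the steadiest of the 9 genes. It was at 98.3, 84.6, 81.0 and 94.6 CPM in cKO 1 to 4 and 88.8 CPM in the library labelled cKO 5, against 93.8, 84.1 and 91.2 CPM in WT 1 to 3. Values of the groups were interleaved, with means of 89.5 ± 7.09 CPM in cKO (SD, n = 5) and 89.7 ± 5.0 CPM in WT (SD, n = 3). Its fitted log2 fold change was -0.0037 (SE 0.10), or -0.01 (SE 0.11) without the library labelled cKO 5, and ran from -0.06 to 0.04 over 20 alternative fits.

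The ratio of Caskin1 to Cask per kb of exon was 1.08, 1.19, 1.39, 1.25 and 1.26 in cKO 1 to 5, the last being the library labelled cKO 5, against 0.713, 0.972 and 0.728 in WT 1 to 3. It stood above 1 in 5 of 5 cKO libraries and 0 of 3 WT libraries. With the longest transcripts as length it was above 1 in 5 cKO libraries and 1 WT library. The ratio rests on the same Caskin1 values and is no separate evidence.

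**Figure D3:**
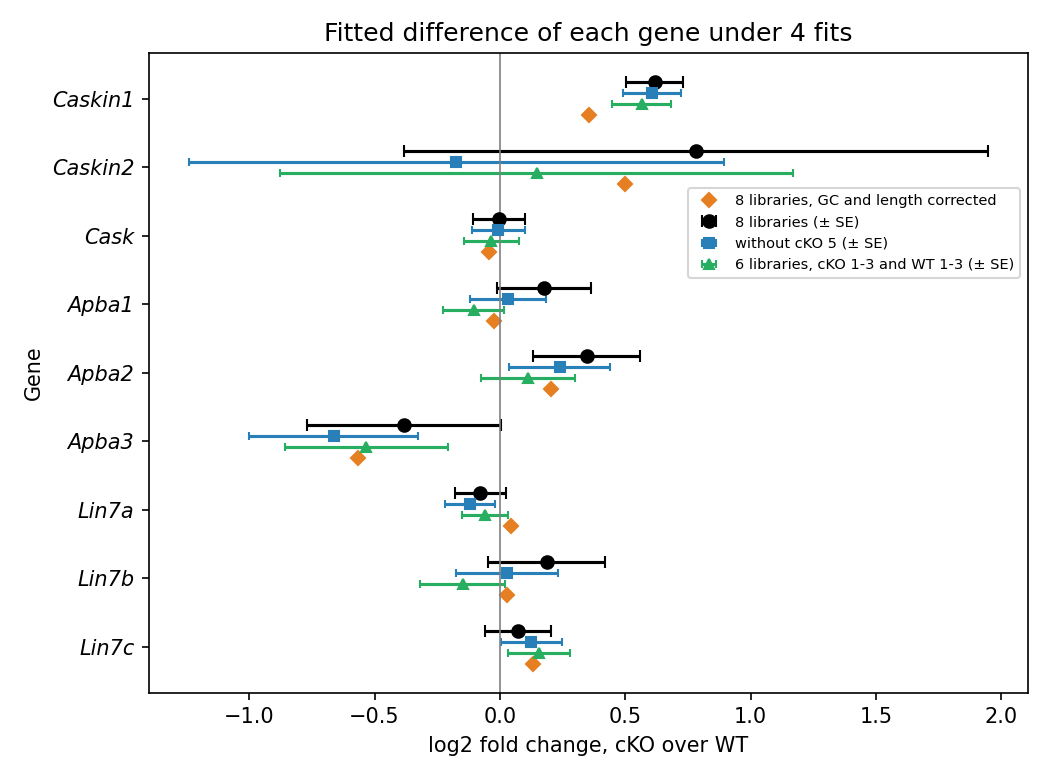
Log2 fold change of cKO over WT for each gene from 4 fits, all but the GC and length corrected one with bars of ± 1 SE. Caskin1 lies between 0.36 and 0.62 in all 4, while Apba1 and Lin7b lie on both sides of 0 and Caskin2 has an SE above 1 in each fit drawn with bars.

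Among the Mint genes, Apba1 (ENSMUSG00000024897; chromosome 19, 23758887 to 23949596) encodes the partner in the tripartite complex. It was at 100.4, 130.1, 116 and 160.3 CPM in cKO 1 to 4 and 191 CPM in the library labelled cKO 5, against 121, 112 and 137 CPM in WT 1 to 3. The cKO values surrounded the WT values, with cKO 1 lowest and the library labelled cKO 5 highest of all 8. The log2 fold change was 0.18 (SE 0.19), or 0.03 (SE 0.15) without the library labelled cKO 5 and -0.10 (SE 0.12) over 6 libraries. It was -0.02 after the GC and length correction with all 8 libraries kept, so its sign changed with the libraries and with the processing. With the non-neuronal marker covariate it was 0.44 (SE 0.12).

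Apba2 (ENSMUSG00000030519; chromosome 7, 64501706 to 64753878), which encodes the other neuronal Mint, was at 14.2, 14.3, 19.5 and 21.7 CPM in cKO 1 to 4 and 23.8 CPM in the library labelled cKO 5, against 12.7, 16 and 15.4 CPM in WT 1 to 3. In cKO, 3 libraries lay above all WT libraries and 2 lay among them. The log2 fold change was 0.35 (SE 0.21), 0.24 (SE 0.20) without the library labelled cKO 5, 0.11 (SE 0.19) over 6 libraries and 0.20 after the GC and length correction. With the non-neuronal marker covariate it was 0.53 (SE 0.21).

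Apba3 (ENSMUSG00000004931; chromosome 10, 81266960 to 81273246) was at 2.13, 2.09, 2.03 and 1.36 CPM in cKO 1 to 4 and 3.91 CPM in the library labelled cKO 5, against 2.34, 3.69 and 2.97 CPM in WT 1 to 3. cKO 1 to 4 lay below all WT libraries, and the library labelled cKO 5 lay above them all. The log2 fold change was -0.38 (SE 0.39), and -0.66 (SE 0.34) without the library labelled cKO 5, from 63 to 185 counts per library. Without WT 2 it was -0.21. Tjp3, on the opposite strand, shares 40 exon bases (1.38%) with Apba3 and was at 0.0935 to 0.761 CPM in cKO and 0.804 to 1.62 CPM in WT.

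As shares of the Mint counts per kb of exon, Apba1 made up 77.9 ± 2.48% in cKO (SD, n = 5) and 78.6 ± 3.19% in WT (SD, n = 3). Apba2 made up 19.0 ± 2.43% in cKO and 16.9 ± 2.06% in WT, and Apba3 3.10 ± 0.919% in cKO and 4.56 ± 1.13% in WT. The make-up of the Mint family differed by less than its spread for Apba1, with Apba1 the main gene in every library.

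The Lin7 genes encode small PDZ proteins that join CASK through L27 domains. Lin7a (ENSMUSG00000019906; chromosome 10, 107271686 to 107421474) was at 178, 170.5, 164 and 143 CPM in cKO 1 to 4 and 184 CPM in the library labelled cKO 5, against 184, 165 and 182 CPM in WT 1 to 3. The groups overlapped, with cKO 4 the lowest library. The log2 fold change was -0.08 (SE 0.10), or -0.12 (SE 0.10) without the library labelled cKO 5, and changed sign, to 0.04, after the GC and length correction.

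Lin7b (ENSMUSG00000003872; chromosome 7, 45367891 to 45370583) varied most between libraries among the 3. It was at 30.7, 38.97, 42.1 and 56.4 CPM in cKO 1 to 4 and 66.1 CPM in the library labelled cKO 5, against 46.4, 44.3 and 32.7 CPM in WT 1 to 3. The cKO libraries spread over both sides of WT, from the lowest to the highest value of all 8. The log2 fold change was 0.19 (SE 0.23), 0.03 (SE 0.20) without the library labelled cKO 5, -0.15 (SE 0.17) over 6 libraries and 0.05 without WT 3. With the non-neuronal marker covariate it was 0.54 (SE 0.15). Ppfia3, the gene for liprin-alpha-3, lies downstream of Lin7b on the same minus strand, with its start 871 bases from the end of Lin7b. Ppfia3 was at 25.2 to 35.1 CPM in cKO and 19.5 to 26.5 CPM in WT. Of the exon bases of Lin7b, 20.4% lie opposite the noncoding gene Gm45619.

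Lin7c (ENSMUSG00000027162; chromosome 2, 109890853 to 109901003) was at 212, 162, 158.5 and 162 CPM in cKO 1 to 4 and 139 CPM in the library labelled cKO 5, against 144, 161 and 170.4 CPM in WT 1 to 3. cKO 1 was the highest library and the library labelled cKO 5 the lowest, the reverse of Lin7b. The log2 fold change was 0.07 (SE 0.13), or 0.13 (SE 0.12) without the library labelled cKO 5. It was -0.03 without cKO 1 and -0.12 (SE 0.11) with the non-neuronal marker covariate.

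The make-up of the Lin7 family shifted accordingly from library to library. Lin7b took 17.3, 23.4, 25.4, 32.8 and 34.3% of the Lin7 counts per kb in cKO 1 to 5, the last being the library labelled cKO 5, against 26.6, 26.1 and 19.4% in WT 1 to 3. Lin7c took 38.6, 31.5, 30.9, 30.6 and 23.3% in the same cKO libraries, against 26.7, 30.8 and 32.8% in WT 1 to 3. Lin7a took 42.4 ± 3.36% in cKO (SD, n = 5) and 45.8 ± 2.48% in WT (SD, n = 3).

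**Figure D4:**
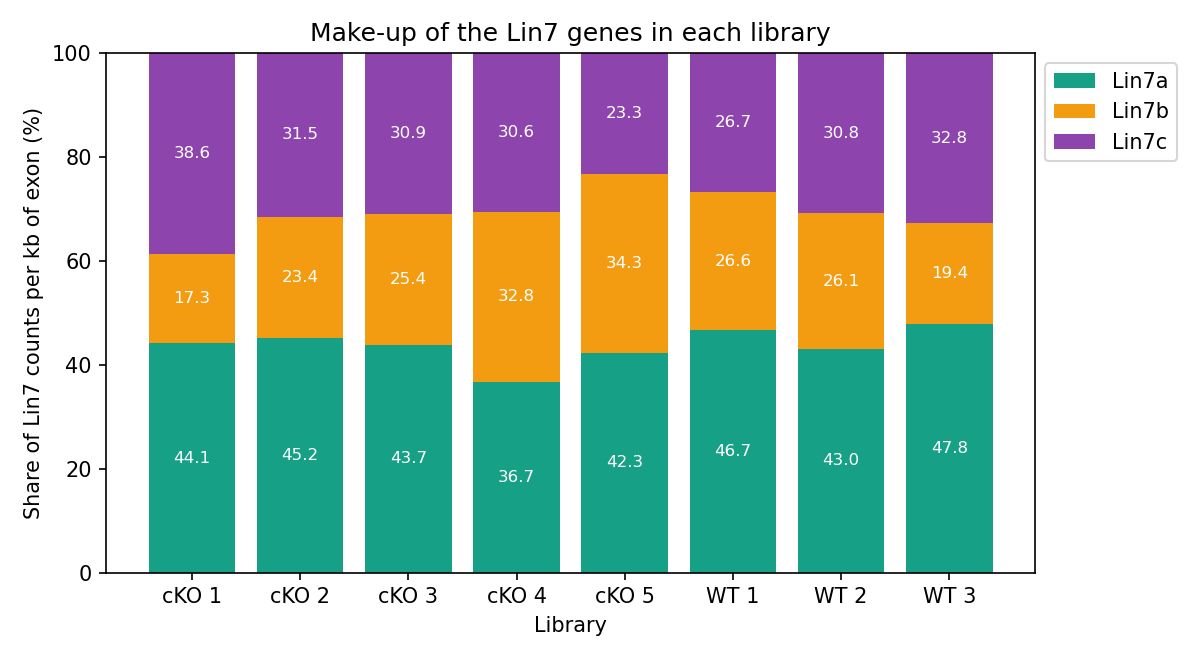
Share of each Lin7 gene in the Lin7 counts per kb of exon, in percent, for the 5 cKO libraries on the left and the 3 WT libraries on the right. The Lin7b share runs from 17.3% in cKO 1 to 34.3% in the library labelled cKO 5, and the WT libraries lie between these values.

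The libraries at both ends of these values were also those at the ends of the GC slopes. The GC-rich Lin7b was lowest in cKO 1 and WT 3, the 2 libraries with the lowest slopes, and highest in cKO 4 and the library labelled cKO 5, the 2 with the highest. The AT-rich Lin7c was highest in cKO 1 and lowest in the library labelled cKO 5. After the GC and length correction, the log2 fold change of Lin7b was 0.03 and that of Lin7c 0.13. Of the 8 libraries, cKO 1 also had the most genes detected (21478) and the library labelled cKO 5 the fewest (18811). The non-neuronal marker mean was highest in cKO 1 (1.09), and was 0.196 in the library labelled cKO 5 and 0.166 in WT 1. With that mean as covariate, Lin7b was at 0.54 and Lin7c at -0.12. The parts of base composition and of these measures cannot be told apart here, and were not tested beyond the correction and the covariate.

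**Figure D5:**
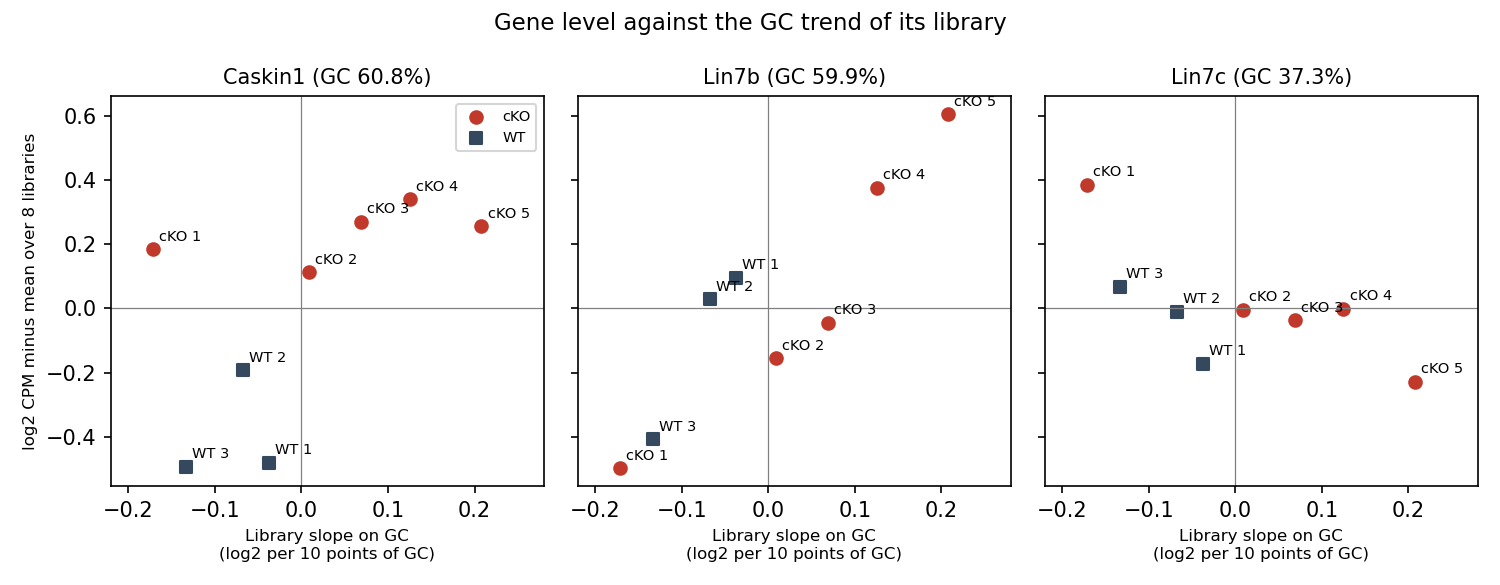
Level of Caskin1, Lin7b and Lin7c in each library (log2 CPM minus the mean over 8 libraries) against the slope of all genes of that library on GC content (log2 per 10 points of GC). Circles are cKO and squares WT libraries, cKO 5 being the library whose Hltf level goes against its label. Lin7b is lowest at the slope of -0.17 and highest at 0.21, Lin7c is the reverse, and Caskin1 in cKO 1 lies above the WT libraries at the lowest slope.

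Genes whose pattern over the 8 libraries was most like that of Caskin1 were ranked by Pearson's r of log2 CPM, as a measure of likeness without a test, among 8012 genes with a mean of at least 10 CPM. The closest were Gna11 (r 0.958), a G protein alpha subunit, Slc39a9 (0.954), a zinc transporter, Grk2 (0.954), a G protein-coupled receptor kinase, Slc17a7 (0.953), a vesicular glutamate transporter, and Rtn4rl1 (0.952), a Nogo receptor relative. The most opposite were Fam216a (r -0.960), Camkk2 (-0.946), Hars (-0.946), Tk2 (-0.942) and Basp1 (-0.939). Within groups, after the group means were removed, r with Rtn4rl1 was 0.902 and with Slc39a9 0.842. It was 0.667 with Gna11, 0.652 with Slc17a7 and 0.556 with Grk2. For the opposite genes it was -0.616 with Fam216a, -0.489 with Camkk2, -0.666 with Hars, -0.424 with Tk2 and -0.340 with Basp1. The ranking over 8 libraries thus includes the cKO to WT difference by which Caskin1 was chosen. Of the other scaffold genes, Apba2 ranked 590th at an r of 0.661 and Lin7a ranked 6869th at -0.519.

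Binding partners of the complex were examined as 45 genes in 5 lists, of which 43 were tested (Sdc1 and Sdc4 were too low). edgeR called 0 higher and 0 lower at an adjusted p under 0.05, against 0% of all genes in each direction. At an unadjusted p under 0.05, 5 were higher and 0 lower, where 5.02% of all genes tested were higher and 3.70% lower. DESeq2 called 1 partner, Ptprs, beside 1.04% of all genes that had an adjusted p. The median log2 fold change was 0.05, against 0.02 over all genes tested, with 28 of 43 above 0. In 3 of them, Cadm3, Ptprs and Mpp2, all cKO libraries lay above all WT libraries, beside 3.38% of all genes. Cadm3, an adhesion molecule named after its values were seen, was at 281 to 328 CPM in cKO and 256 to 275 CPM in WT, a log2 fold change of 0.20 (SE 0.09), or 0.22 (SE 0.08) without the library labelled cKO 5.

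Ptprs, a LAR-type receptor tyrosine phosphatase, was at 225, 222, 229 and 266 CPM in cKO 1 to 4 and 295 CPM in the library labelled cKO 5, against 173, 192 and 162 CPM in WT 1 to 3. The groups did not overlap, and the log2 fold change was 0.49 (SE 0.12), or 0.42 (SE 0.10) without the library labelled cKO 5. Ppfia3 was at 0.30 (SE 0.16), or 0.21 (SE 0.15) without that library, with overlapping groups, and the list of liprins and LAR-type phosphatases had a median of 0.13 with 6 of 7 above 0.

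Mpp2, a guanylate kinase scaffold with the L27 domains that bind Lin7, was at 120.2, 137, 134 and 192 CPM in cKO 1 to 4 and 173 CPM in the library labelled cKO 5, against 96.6, 113 and 116 CPM in WT 1 to 3. The lowest cKO library stood just above the highest WT library, and the log2 fold change was 0.48 (SE 0.16), or 0.42 (SE 0.16) without the library labelled cKO 5. Its relative Mpp3 was at -0.14 (SE 0.22), or -0.06 (SE 0.20) without that library, and the list of 8 such kinases had a median of -0.03 with 3 above 0.

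Of the 9 tested neurexins, syndecans and Cadm adhesion molecules, whose tails CASK binds, 7 lay above 0, with a median of 0.09. Nrxn2 was at 38.1 ± 7.16 CPM in cKO (SD, n = 5) and 28.4 ± 4.79 CPM in WT (SD, n = 3), a log2 fold change of 0.43 (SE 0.18). Sdc3, a syndecan, was at 0.31 (SE 0.22). These were 0.32 (SE 0.16) for Nrxn2 and 0.26 (SE 0.23) for Sdc3 when the library labelled cKO 5 was left out. Among the 5 Mint partners, all above 0 with a median of 0.11, Aplp1 was at 0.24 (SE 0.10) and App, the amyloid precursor protein gene, at 0.14 (SE 0.09). Without the library labelled cKO 5 these were 0.21 (SE 0.11) for Aplp1 and 0.12 (SE 0.09) for App. Of the 14 other partners, with a median of 0.0006 and 7 above 0, Cacna1b, the pore subunit of N-type calcium channels, was at 0.30 (SE 0.14) and Nck2, an adaptor, at -0.21 (SE 0.16). Without that library Cacna1b was at 0.25 (SE 0.14) and Nck2 at -0.27 (SE 0.16). None of these genes was called by edgeR. Among the named partners GC content ran from 46.1% in App to 62.4% in Nrxn2, with 60.3% in Ptprs, 56.6% in Mpp2 and 53.5% in Cadm3. The part of base composition in the differences of the partners was not tested.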

How the data were processed

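RNA pulled down with tagged ribosomes was sequenced from 5 cKO and 3 WT hippocampal pools. The deposited table holds raw counts per Ensembl gene; the submitters' processing notes name STAR 2.5.3a, HTSeq and mm10. The annotation release, strandedness and filters are not given in the sources used here. Symbols, positions, lengths and GC content came from GENCODE vM21, of the same build; 37693 of 39017 IDs had a symbol, and 98.2% of tested genes had a GC value.

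Groups were compared in R 4.3.3 with edgeR 4.0.16 over 17654 genes (TMM scaling, filterByExpr by group, robust quasi-likelihood fit, two-sided test of cKO against WT, Benjamini-Hochberg adjustment over all genes tested, called at 0.05). SE is the log2 fold change over the square root of its F. All 9 scaffold genes passed the filter. CPM uses TMM-scaled totals. DESeq2 1.42.0 and limma-voom (limma 3.58.1) were alternatives. The edgeR step was checked on simulated counts, where it called only part of the changed genes at each size of change. The GC and length correction removes each library's spline trend of log2 CPM on both.

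Genes and lists were chosen with earlier results of these data known. Named are the 9 genes, the 5 genes most and the 5 least like Caskin1, the 2 partners per list with the largest absolute log2 fold change at a mean of at least 1 CPM, Hltf, and overlapping or adjacent genes; predicted genes were left out of the ranking. Figures used Python 3.11.15 and matplotlib 3.10.9.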

Additional observations from a re-analysis of the deposited data

Results flagged for a closer look

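Hltf in the library labelled cKO 5 stood at 11.44 CPM, against 2.83 to 5.10 CPM in the other 4 cKO libraries. Its distance to the nearest of them was 0.737 of the range of the group. None of the 9 scaffold genes had a cKO library as far from the others on this measure, though some came close. Caskin2 was at 0.707 and Apba3 at 0.700, both for the library labelled cKO 5, and Lin7c at 0.679 for cKO 1. Chance alone sets apart about 1 in 20 such groups, and 10 genes were examined.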

How the results depend on the processing

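edgeR called 0 genes in either direction, and 0 in each fit that left out 1 library (0 to 0). Dropping the filter on low counts gave 2 higher and 0 lower, as did a minimum CPM of 1 in 3 libraries and a threshold of 0.1. The GC and length correction gave 1 and 0. The 6 libraries cKO 1 to 3 and WT 1 to 3 gave 5 and 5, or 4 and 2 once corrected, an alternative chosen after seeing the data. DESeq2 gave 80 and 49, limma-voom 3 and 1, and the non-neuronal covariate 298 and 126. Caskin1 had a log2 fold change of 0.36 after the correction and 0.42 in the corrected 6 libraries; single libraries left out gave 0.56 to 0.72.

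Same-numbered libraries had deviations from group means correlated at -0.085, 0.017 and 0.041. Low correlations cannot show whether the numbers pair the samples, which the labels do not say. Blocking on replicate number called 0 and 0 genes with Caskin1 at 0.57, and 1 and 0 with Caskin1 at 0.42 when also corrected.

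With the longest transcript as length, Lin7a minus Lin7b was 0.29 and Lin7b minus Lin7c turned to 0.62. Leaving out single libraries gave -0.40 to -0.15 for Lin7b minus Lin7c, with an exact adjusted p of 0.0469 without the library labelled cKO 5. DESeq2 called 1 partner where edgeR called 0, beside 1.04% and 0% of all genes. Of the 5 genes most like Caskin1, 1 was shared after removal of group means and 1 after the correction. Caskin2 rests on 3 to 52 counts per library, so its fold change is imprecise.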
